A study of Mus musculus with 5 samples.

Results

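The genes Cd209a, Cd209b, Cd209c, Cd209d, Cd209e, Cd207, Clec10a and Mgl2 encode C-type lectins of the DC-SIGN, Langerin and galactose lectin groups. They were followed through a chromatin immunoprecipitation sequencing (ChIP-seq) map of PU.1, a transcription factor of the ETS family that Spi1 encodes. Members were chosen by name, and each locus was the gene span with 10 kb on each side, for 8 of 21887 protein-coding genes in the annotation. The cells were mouse dendritic cells of a strain labelled C56BL/6, all grown with Flt3L. No treatment or genotype was labelled for any group. Conventional dendritic cells (cDCs), known for presenting antigen to T cells, and their plasmacytoid counterparts (pDCs), known for making type I interferon, each gave 2 biological replicates precipitated with a PU.1 antibody. The only input library, of chromatin without antibody, came from cDCs.

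C-type lectin receptors bind sugars on microbes and on host glycoproteins through a calcium-dependent carbohydrate recognition domain, and dendritic cells use many of them to take up antigen. DC-SIGN relatives and Langerin bind mannose-type sugars, whereas the macrophage galactose lectins bind galactose and N-acetylgalactosamine. PU.1 binds DNA around a GGAA core and acts widely in myeloid cells and dendritic cells, on some elements together with interferon regulatory factors at a joined ETS-IRF motif.

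Read counts were given per 10 bp window, and every listed window of the series summed to at least 33 counts over the 5 libraries. The 8 loci held 92 listed windows, of which 79 passed the filter on low counts and were tested. Neighbouring windows can count the same read, so tested windows no more than 100 bp apart were merged, which gave 16 sites. No window was shared: although the loci of Cd209b and Cd209c overlapped by 6761 bp and those of Cd209d and Cd209e by 2463 bp, no window was listed there, and the gene spans of Mgl2 and Clec10a lay 29.1 kb apart. No window of any member fell in the locus of another protein-coding gene either. Counts summed over all listed windows ran from 6896416 to 11388554 per PU.1 library, lower in pDCs than in cDCs, and came to 2776490 for the input. Every log2 fold is pDC minus cDC with the standard error (SE) implied by the test, from 2 libraries of each cell type. All positions refer to build mm10. CPM is the count scaled to a common library total with TMM factors. The threshold was an adjusted p of 0.05 in the quasi-likelihood test of edgeR, fitted on all loci or windows of the series. Since exact permutation of 2 libraries against 2 cannot go below p = 0.333, single values have no test of their own. A p-value sets a difference against the spread between these libraries, as estimated with all loci or windows of the series. In bulk chromatin fewer bound cells and less binding per cell cannot be told apart. RNA was not measured, so the labelled cell types could not be checked by marker expression.

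The promoter sequences of 6 members are shown because the highest windows of several sites lay in or beside them, and because the Cd209 relatives differed in whether a site was present. RefSeq sequences of GRCm38.p6, whose coordinates are those of mm10, cover 250 bases before to 50 after a gene's start, and 7 of the 8 members had one, the exception being Clec10a. Capitals mark AGGAAGT, a longer sequence around the GGAA core, and the ETS-IRF motif (GGAA, any 2 bases, then GAAA), searched on both strands. The ETS-IRF matches lie on the opposite strand and read TTTCTCTTCC.
Cd209d, chr8:3878450-3878749, minus strand: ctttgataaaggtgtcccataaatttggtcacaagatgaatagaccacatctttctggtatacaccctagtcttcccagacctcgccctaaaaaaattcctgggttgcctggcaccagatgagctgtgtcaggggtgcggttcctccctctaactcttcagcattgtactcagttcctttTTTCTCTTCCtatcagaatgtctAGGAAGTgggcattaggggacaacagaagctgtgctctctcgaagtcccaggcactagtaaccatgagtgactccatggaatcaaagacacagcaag
Cd209a, chr8:3748935-3749234, minus strand: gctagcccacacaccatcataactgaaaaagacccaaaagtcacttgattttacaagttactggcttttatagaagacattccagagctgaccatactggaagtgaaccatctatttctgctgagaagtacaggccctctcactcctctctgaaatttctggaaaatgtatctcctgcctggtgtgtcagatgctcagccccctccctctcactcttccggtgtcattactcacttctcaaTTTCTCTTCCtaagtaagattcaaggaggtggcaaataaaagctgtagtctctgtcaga
Cd209e, chr8:3854237-3854536, minus strand: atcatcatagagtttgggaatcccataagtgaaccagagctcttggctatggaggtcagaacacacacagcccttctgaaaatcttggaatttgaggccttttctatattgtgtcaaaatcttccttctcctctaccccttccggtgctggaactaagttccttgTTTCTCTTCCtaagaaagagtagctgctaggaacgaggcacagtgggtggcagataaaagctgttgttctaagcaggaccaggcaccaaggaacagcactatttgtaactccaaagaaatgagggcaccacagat
Cd209b, chr8:3926792-3927091, minus strand: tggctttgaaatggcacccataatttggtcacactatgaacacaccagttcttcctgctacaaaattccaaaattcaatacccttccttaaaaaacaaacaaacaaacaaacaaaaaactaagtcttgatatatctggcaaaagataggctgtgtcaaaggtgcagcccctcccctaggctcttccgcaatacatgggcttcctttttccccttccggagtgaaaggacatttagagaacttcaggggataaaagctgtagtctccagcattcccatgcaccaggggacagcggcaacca
Mgl2, chr11:70130107-70130406, plus strand: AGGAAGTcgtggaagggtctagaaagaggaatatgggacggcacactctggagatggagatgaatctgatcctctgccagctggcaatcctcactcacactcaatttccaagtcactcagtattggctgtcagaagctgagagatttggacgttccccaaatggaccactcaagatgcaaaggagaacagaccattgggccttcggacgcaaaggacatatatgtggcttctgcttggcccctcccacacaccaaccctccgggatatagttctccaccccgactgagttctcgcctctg
Cd207, chr6:83677808-83678107, minus strand: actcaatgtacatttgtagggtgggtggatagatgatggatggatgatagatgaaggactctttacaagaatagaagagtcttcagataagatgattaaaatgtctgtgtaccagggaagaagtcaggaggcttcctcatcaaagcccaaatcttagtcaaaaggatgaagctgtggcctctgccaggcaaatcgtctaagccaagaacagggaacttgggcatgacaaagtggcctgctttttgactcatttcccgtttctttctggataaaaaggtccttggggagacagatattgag

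AGGAAGT was found in the promoters of Cd209d and Mgl2, against 9.35% of all 32851 promoter entries. The ETS-IRF motif was found in those of Cd209a, Cd209d and Cd209e, each time as TTTCTCTTCC, against 2.72% of entries; these 3 genes are paralogs. The longer GAGGAAGT, present in 3.2% of entries, was in none of the 7, and GGAA alone was in 96% of entries. The promoters of Cd209b, Cd209c and Cd207 held neither capitalised motif. In Cd209d the AGGAAGT began 47 bases before the start and the ETS-IRF match 70 bases before it, without overlap; their midpoints lay 62 and 41 bp from that of the highest window of the start site. In Mgl2 the AGGAAGT began 250 bases before the start and overlapped the highest window there, 70130101 to 70130110. In Cd209a the ETS-IRF match began 9 bases before the start, 83 bp between midpoints from the highest window. The match of Cd209e lay 1439 bp, between midpoints, from the nearest highest window of that gene, and no site overlapped its promoter. These are matches of letters only.

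PU.1 signal was higher in cDCs at Cd209d, Cd207 and Mgl2, and higher in pDCs at Clec10a, the neighbour of Mgl2. Of the 8 loci these 4 were called, Cd209a, Cd209c and Cd209e were not, and Cd209b had no listed window. Over all 15001 loci with signal, 8.27% were called higher in cDCs and 9.39% higher in pDCs, 17.7% in all, and the median log2 fold was 0.01. The log2 folds of the 4 called loci had sizes from 0.74 to 1.29. Against a minimum fold of 1.5 none of the 4 calls was kept, with edgeR adjusted p of 0.167 for Cd209d, 0.145 for Cd207, 0.0636 for Clec10a and 0.594 for Mgl2. With library sizes from repeat windows the median log2 fold of all loci was -0.46 and the 4 calls ended; relative to that median they lay at -1.06, -1.46, 1.18 and -0.76 in the same order.

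**Figure D1:**
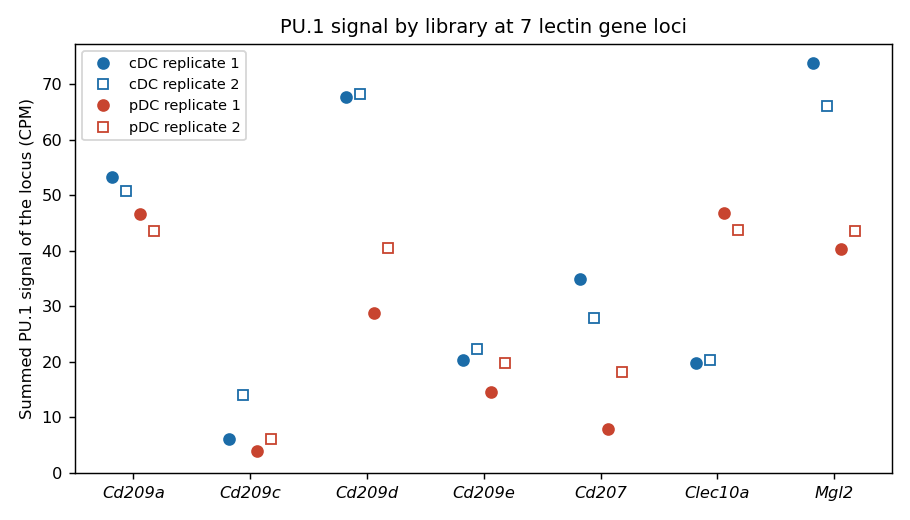
Summed PU.1 signal of each locus in CPM on the vertical axis, with 1 point per library and no error bars, for the 7 loci with listed windows. Points of the cDC libraries lie above those of the pDC libraries at the called loci Cd209d, Cd207 and Mgl2, and below them at the called locus Clec10a. Cd209a, Cd209c and Cd209e were not called, and the cell types overlap at Cd209c. The share of all loci whose libraries separate by cell type was not computed.

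Site by site, 4 of 16 sites were called higher in cDCs, 1 was called higher in pDCs and 11 were not called. Over all 60527 sites of the series 14.5% were called, 6% higher in cDCs and 8.46% higher in pDCs. Of the 79 tested windows, 20 were higher in cDCs and 5 in pDCs, where 6.36% and 7.99% of all windows were, 14.4% in all. At the highest window of a site, both cDC libraries lay above both pDC libraries at 9 sites and the reverse held at 3, against 28.4% and 29% of all sites. The highest windows of 7 sites were above the input in cDCs and of 5 in pDCs (edgeR adjusted p below 0.05 and at least 2-fold), against 39.7% and 36.1% of all sites. Of the tested windows, 24 were above the input in cDCs and 15 in pDCs, against 35.4% and 31.3% of all windows. That comparison turns on how the input is scaled, since repeat windows held 74.6% of the input counts. They held 18% of the counts of pDC replicate 2 but 9.15% to 10.5% of those of the other PU.1 libraries. With TMM scaling 1 site was above the input in cDCs, the one at 70126301 to 70126610 outside the span of Mgl2, and 0 in pDCs.

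**Figure D2:**
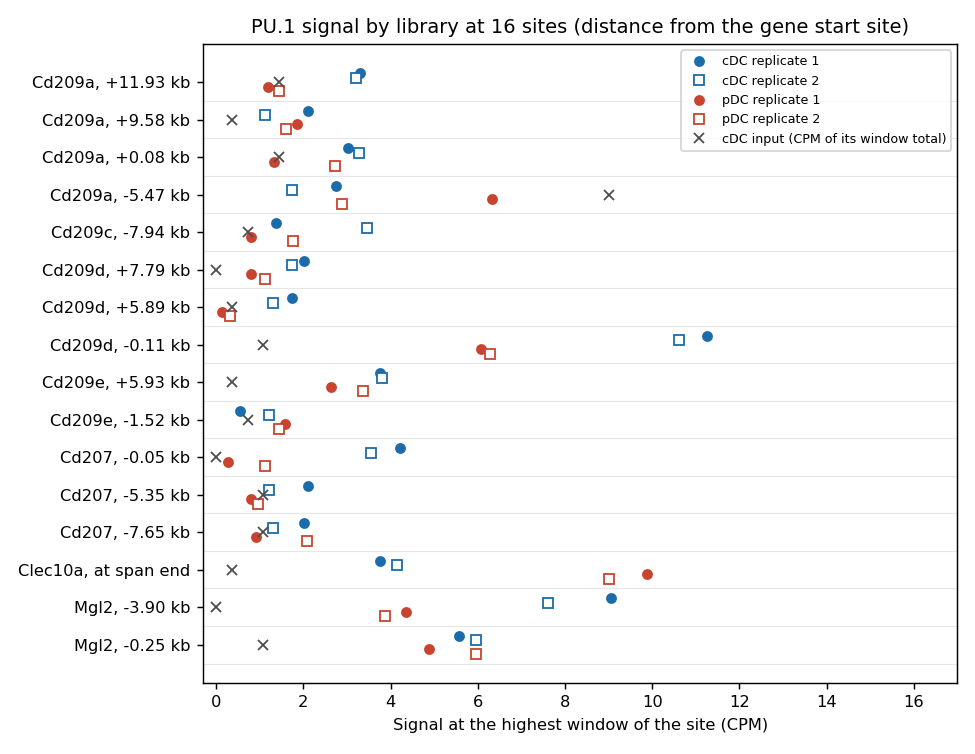
Signal in CPM at the highest window of each of the 16 sites, with 1 point per library; crosses give the input scaled to its own window total, and labels give the distance of the window from the gene's start, positive downstream. The start site of Cd209d is highest in cDCs at 11.2 and 10.6 CPM, the Clec10a site is highest in pDCs at 9.89 and 9.01 CPM, and the Cd209a site 5.47 kb before the start is the one where the input, at 9.004 CPM, exceeds every PU.1 library.

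Cd209d, also called SIGNR3, one of the mouse relatives of DC-SIGN (chromosome 8, 3871824 to 3878548), carried the strongest site of all members. The summed signal of the locus was 67.7 and 68.2 CPM in cDC replicates 1 and 2 and 28.9 and 40.5 CPM in pDC replicates 1 and 2. Both cDC libraries lay well above both pDC libraries, 1.97-fold in the fit (log2 fold -0.98 ± 0.21, edgeR adjusted p = 0.00540). Its strongest site lay over the start of the gene at 3878451 to 3878760, in the promoter whose sequence is shown. Its highest window, 106 bp before the start, had 11.2 and 10.6 CPM in cDCs (123 counts in each library) and 6.07 and 6.27 CPM in pDCs (46 and 39 counts), with 3 counts in the input. That window was above the input in both cell types under scaling to window totals and in neither with TMM scaling. Between the cell types the level differed by a log2 fold of -0.92 ± 0.25 at the best window (edgeR adjusted p = 0.0470 for the site). The site ranked at the 91.5th percentile of all sites by its highest window.

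A weaker site lay inside Cd209d at 3872551 to 3872660, 5.89 kb after the start. Its highest window had 19 and 15 counts in cDCs, 1 and 2 in pDCs and 1 in the input, so pDC signal there was at the level of single reads. Under scaling to window totals that window was above the input in neither cell type. This inner site ranked at the 1.35th percentile of all sites by its highest window. The log2 fold at its best window was -3.09 ± 0.82 (edgeR adjusted p = 0.0173 for the site). A further site 1.06 kb outside the span, at 3870651 to 3870760, had 22 and 20 counts in cDCs against 6 and 7 in pDCs and 0 in the input, and was not called (edgeR adjusted p = 0.380). The calls of the start site and of the inner site ended without cDC replicate 1 (log2 folds -1.58 and -2.49), without cDC replicate 2 (-1.001 and -2.90) and without pDC replicate 1 (-0.81 and -2.95). With pDC replicate 2 left out instead, both were called, at -2.19 and -3.40. Site folds from fits without a library, here and at the other members, are those of the best window of that fit, which can be another window than in the full fit. The locus call held in each of these 4 fits, with log2 folds between -1.25 and -0.75.

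**Figure D3:**
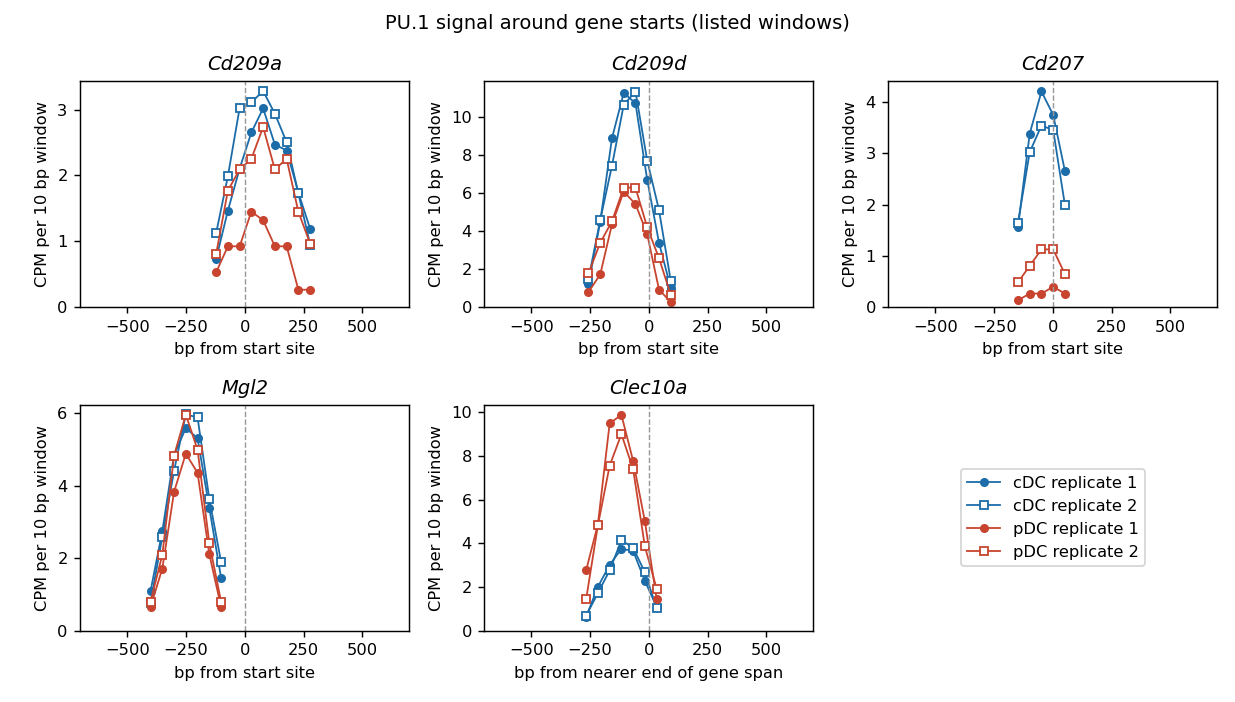
PU.1 signal in CPM per 10 bp window against distance from the start of the gene (for Clec10a, from the lower end of its span), with 1 line per library; only listed windows are drawn, vertical axes differ between panels, and the dashed line marks the start. The Cd209d and Cd207 peaks stand higher in both cDC libraries, the Clec10a peak higher in both pDC libraries, the libraries of both cell types overlap at the top of the Mgl2 start peak, and in the peak over the Cd209a start pDC replicate 1 lies below the other 3.

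Cd209a, the gene that carries the name DC-SIGN in the mouse (chromosome 8, 3743395 to 3748984), was not called as a locus. Its summed signal was 53.2 and 50.8 CPM in cDCs and 46.6 and 43.6 CPM in pDCs, close together though not overlapping (log2 fold -0.20 ± 0.19, edgeR adjusted p = 0.528). The sum mixed 4 sites that behaved differently. Over the start, at 3748751 to 3749060, the highest window reached 3.02 and 3.28 CPM in cDCs (33 and 38 counts) but 1.32 and 2.73 CPM in pDCs (10 and 17 counts), with 4 counts in the input. pDC replicate 2 was close to the cDC libraries there and the site was not called (log2 fold -0.88 ± 0.45 at the best window, edgeR adjusted p = 0.388). It was called without pDC replicate 2 (edgeR adjusted p = 0.0395), where the best window of that fit lay at -2.66, while without pDC replicate 1 the best window lay at -0.37. The best window is chosen anew in each fit, so these folds are not levels of the highest window.

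A site at 3736951 to 3737160, 6.23 kb outside the span and inside the long non-coding gene Gm16553, was the called site of Cd209a. Its highest window had 36 and 37 counts in cDCs, 9 and 9 in pDCs and 4 in the input. Under scaling to window totals that window was above the input in neither cell type. At the best window the log2 fold was -1.92 ± 0.50 (edgeR adjusted p = 0.0303 for the site). That call ended when cDC replicate 1 (-2.04), cDC replicate 2 (-1.79) or pDC replicate 1 (-1.52) was left out. The neighbouring site at 3739351 to 3739460 had 23 and 13 counts in cDCs and 14 and 10 in pDCs, with overlapping CPM values and no call.

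At 3754351 to 3754610, 5.37 kb outside the span of Cd209a, the input, scaled to its window total, lay above every PU.1 library. The highest window had 25 input counts beside 30 and 20 in cDCs and 48 and 18 in pDCs, although the input total was the smallest of the 5. The site was not called (1.07 ± 0.38, edgeR adjusted p = 0.109), and was without pDC replicate 2 (1.53). With the windows of at least 10 input counts left out of the whole series, a setting chosen after seeing the data, the log2 fold of the Cd209a locus became -0.83 and it was called higher in cDCs (edgeR adjusted p = 0.0455). Cd209d, Cd207, Mgl2 and Clec10a kept their calls in that setting, at -0.98, -1.29, -0.74 and 1.17.

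Cd209e, or SIGNR4 (chromosome 8, 3847973 to 3854286), lay at 20.4 and 22.3 CPM in cDCs and 14.5 and 19.7 CPM in pDCs, a log2 fold of -0.32 ± 0.28 that was not called (edgeR adjusted p = 0.498). Its main site, at 3848251 to 3848510, lay inside the span 5.93 kb after the start, and its highest window had 3.75 and 3.80 CPM in cDCs and 2.64 and 3.38 CPM in pDCs. This window was above the input, which had 1 count, in both cell types under scaling to window totals. A second site of Cd209e, 1.51 kb outside the span at 3855801 to 3855860, had 6 and 14 counts in cDCs, 12 and 9 in pDCs and 2 in the input. Neither site was called, with edgeR adjusted p of 0.225 and 0.591.

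Cd209c, or SIGNR2 (chromosome 8, 3940081 to 3954746), held a single site over the upstream end of its span, 3954701 to 3954860. The highest window lay 7.94 kb before the start given by the promoter entry, a start that falls inside the span. The locus sum was 6.05 and 14.1 CPM in cDCs and 3.89 and 6.06 CPM in pDCs, the lowest of the measured members. cDC replicate 2 stood apart, and cDC replicate 1 was level with pDC replicate 2. The log2 fold of -1.03 ± 0.46 was not called (edgeR adjusted p = 0.137). It was -0.29 without cDC replicate 2, and -1.38 and called without pDC replicate 2 (edgeR adjusted p = 0.0111). Cd209b, or SIGNR1, known from marginal zone macrophages of the spleen (chromosome 8, 3917655 to 3926841), had no listed window in its span or its flanks. Weaker signal at Cd209b would not be seen.

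Cd207 encodes Langerin, the lectin of Birbeck granules in Langerhans cells, which some cDCs also make (chromosome 6, 83671207 to 83677857). Its locus had 34.9 and 27.9 CPM in cDCs and 7.92 and 18.2 CPM in pDCs, the largest fold of the called members at 2.44-fold (log2 fold -1.29 ± 0.34, edgeR adjusted p = 0.0176). A site over the start at 83677801 to 83678010 differed most. Its highest window, 48 bp before the start, had 4.21 and 3.54 CPM in cDCs (46 and 41 counts) and 0.264 and 1.13 CPM in pDCs (2 and 7 counts), with 0 counts in the input. All 5 windows of the site were called, and the log2 fold was -2.53 ± 0.50 (edgeR adjusted p = 0.00284 for the site). In cDCs that window was above the input and in pDCs it was not, under scaling to window totals; that difference was not itself tested against the input.

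The other 2 Cd207 sites, 5.24 and 7.59 kb outside the span at 83683101 to 83683260 and 83685451 to 83685610, were low and not called. Their highest windows had 23 and 14 and then 22 and 15 counts in cDCs, 6 and 6 and then 7 and 13 in pDCs, and 3 in the input each. The call of the start site held without each library in turn, with log2 folds between -3.81, with pDC replicate 2 left out, and -1.77, with pDC replicate 1 left out, and ended in the DESeq2 Wald test (adjusted p = 0.0825). The locus call ended without cDC replicate 1 (-1.11, edgeR adjusted p = 0.133), and its log2 fold was -0.79 without pDC replicate 1 but -1.997 without pDC replicate 2. By the gene span alone, the locus lay at -2.36 (edgeR adjusted p = 0.00890).

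Mgl2 and Clec10a, the galactose lectin genes MGL2 (CD301b) and MGL1 (CD301a), lie side by side on chromosome 11 and had opposite directions; the difference between the loci was not tested. At Mgl2 (70130125 to 70137542) the summed signal was 73.7 and 66.1 CPM in cDCs and 40.4 and 43.6 CPM in pDCs, 1.67-fold higher in cDCs (log2 fold -0.74 ± 0.19, edgeR adjusted p = 0.0135). This call ended without cDC replicate 1 (-0.66) and without cDC replicate 2 (-0.81). It also ended by the gene span alone (-0.55), which leaves out the outer site and the highest window of the site over the start.

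Neither of the 2 Mgl2 sites was called. At 70126301 to 70126610, 3.51 kb outside the span and 3.90 kb before the start, the highest window had 9.05 and 7.60 CPM in cDCs (99 and 88 counts) and 4.35 and 3.86 CPM in pDCs (33 and 24 counts), with 0 counts in the input. Of its 7 windows 4 were called, with a log2 fold of -1.01 ± 0.28 at the best, but the site as a whole missed the threshold (edgeR adjusted p = 0.0566). It passed with library-size scaling (edgeR adjusted p = 0.0269), with no filter on low counts (0.0469) and where mean counts reached 30 (0.0255). It did not pass with library sizes from repeat windows (edgeR adjusted p = 0.136) or against a minimum fold of 1.5 (0.260). Nor did it pass in the DESeq2 Wald test (adjusted p = 0.532). It was called without pDC replicate 1 (log2 fold -1.46) or pDC replicate 2 (-1.16). Without cDC replicate 1 (-1.26) or cDC replicate 2 (-1.35) it was not called. The site over the start, 70130001 to 70130260, which also touches the pseudogene Gm12311, had 5.58 and 5.96 CPM in cDCs and 4.88 and 5.95 CPM in pDCs at its highest window. pDC replicate 2 reached the level of the cDC libraries there, with a log2 fold of -0.10 ± 0.28 at that window. At the best window of the site the log2 fold was -1.20 ± 0.54 (edgeR adjusted p = 0.465 for the site).

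At Clec10a (70166623 to 70170836) the locus held a single site, 70166351 to 70166660, at the lower end of the span, and its 7 windows made up the whole sum. The locus had 19.8 and 20.3 CPM in cDCs and 46.8 and 43.8 CPM in pDCs, with replicates close together and a gap between the cell types (2.26-fold, log2 fold 1.18 ± 0.23, edgeR adjusted p = 0.00302). The highest window, 70166501 to 70166510, had 41 and 48 counts in cDCs, 75 and 56 in pDCs and 1 in the input, or 3.75 and 4.15 CPM against 9.89 and 9.01 CPM. In both cell types this window was above the input under scaling to window totals. At the best window the log2 fold was 1.56 ± 0.29, with 5 of 7 windows called (edgeR adjusted p = 0.00225 for the site). The call of the site ended without cDC replicate 1 (1.62), without cDC replicate 2 (1.499), in the DESeq2 Wald test (adjusted p = 0.0573) and with library sizes from repeat windows (1.19). The locus call held without each library in turn, at 1.13 to 1.21. It ended by the gene span alone (0.59), which holds only 1 window of the site and not the highest. With flanks of 50 kb, which take in other sites, the locus value turned to -0.0558.

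**Figure D4:**
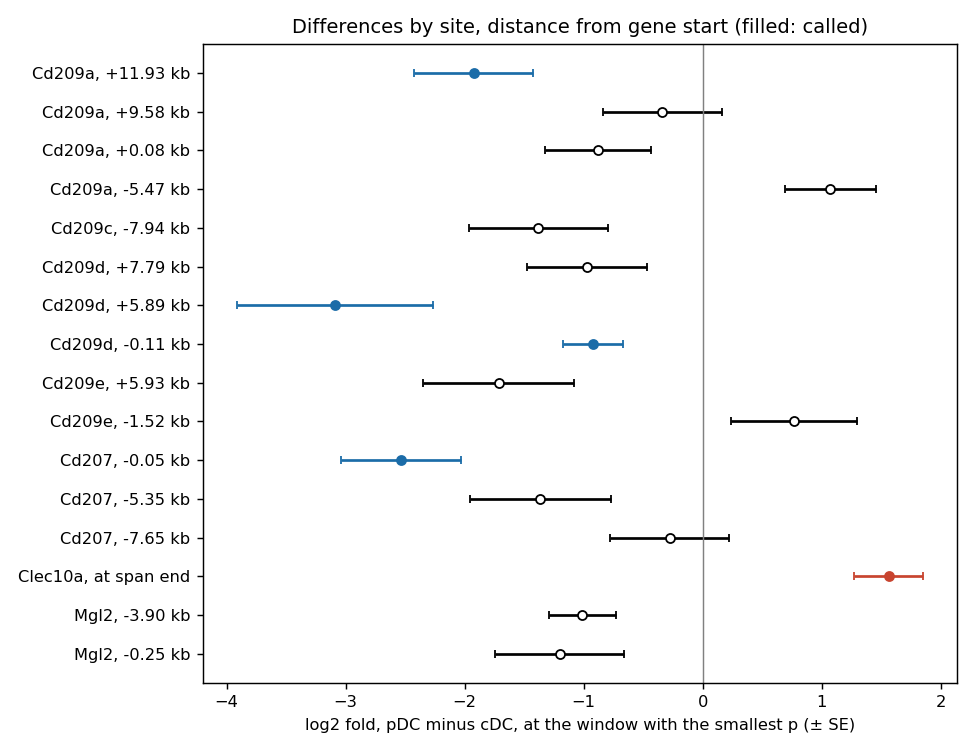
Log2 fold, pDC minus cDC, at the window with the smallest p of each of the 16 sites, with bars of 1 SE and n = 2 libraries per cell type; filled points are sites called at an adjusted p below 0.05. The 4 blue points, higher in cDCs, lie between -3.09 and -0.92, and the red point, Clec10a, lies at 1.56.

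Other C-type lectin loci are given by their counts, beside 17.7% called over all loci. Of the listed lectin genes near the members or of related families, Cd209f, Cd209g, Clec4g, Fcer2a, Clec4f and Asgr2 were measured and none of the 6 was called (median log2 fold -0.26). Clec4b2 was called higher in cDCs, the only one of the 9 loci of the Dectin-2 cluster (-1.39 ± 0.31, edgeR adjusted p = 0.00656). The 8 loci of the Dectin-1 cluster had 0 calls with a median of -0.27, and the 4 measured loci of the mannose receptor family had 0 calls with a median of 0.22. Of 6 other measured lectin loci, Clec11a was called higher in pDCs (1.67 ± 0.46, edgeR adjusted p = 0.0214). Its locus sum was low, at 1.98 and 2.19 CPM in cDCs and 7.92 and 5.28 CPM in pDCs. By the pattern over the 4 PU.1 libraries, each locus centred on its own mean, the lectin locus most like Clec10a among 33 candidates was Clec11a (root mean square distance 0.165 on the log2 scale). Those most like Cd207 and Mgl2 were Clec4b1 (0.186) and Clec7a (0.128). Clec7a was also nearest to Cd209d (0.280), Clec1a to Cd209a (0.0532), and Clec1b to Cd209e (0.0224) and Cd209c (0.414).

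Marker loci of other cells that a culture could hold can be read only as PU.1 signal. Of B cell markers 2 of 5 loci were higher in pDCs and 0 in cDCs, of macrophage and monocyte markers 1 of 4 each way, of neutrophil markers 1 of 3 in pDCs, and of T and NK cell markers 0 of 3 were called. The macrophage markers called were Adgre1, the gene of F4/80, at -1.80 ± 0.34 and Mertk, a receptor for dying cells, at 0.69 ± 0.21. Over all loci 17.7% were called. Of cDC markers 0 of 4 and of pDC markers 2 of 4 were called, the latter Siglech and Bst2 towards pDCs. Summed over the list, macrophage markers lay at 245 and 239 CPM in cDCs and 179 and 208 CPM in pDCs, and B cell markers at 254 and 244 CPM in cDCs and 341 and 343 CPM in pDCs. Their part in the results on the lectin genes was not tested.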

How the data were processed

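The deposited tables hold raw read counts per 10 bp window, with no normalisation by the authors. Subread 1.4.4 was used on build mm10, per the submitters' processing notes; the sources used here do not give read extension or how windows were chosen. Each library's column was equal in the series table and its own file (5 of 5). No values were altered.

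Windows were kept by filterByExpr (minimum count 10), 286435 of 329996. The 4 PU.1 libraries were fitted with edgeR 4.0.16 (R 4.3.3, limma 3.58.1; TMM factors, quasi-likelihood test, Benjamini-Hochberg adjustment, cell type as the only term), on windows and on locus sums. Windows were joined within 100 bp and their p-values combined by the Simes method; each site takes the fold of the window whose p was lowest. Genes came from RefSeq, GRCm38.p6. The input was compared in a fit of all 5 libraries scaled to window totals, with the spread of the lone input taken from the other libraries. Window totals are not sequencing depth, which is unknown. Replicates differed by more than counting error (mean chi-square per window 1.40 for cDCs and 2.16 for pDCs). The fit was tested on simulated data. Alternatives were DESeq2 1.42.0, other scalings, filters, flanks and joining distances, and leaving out each library. Protein motifs, planned, were not examined. All members, their strongest sites and called sites were named by rule. Members, lists, motifs and alternatives were chosen with earlier results of these data known.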

Additional observations from a re-analysis of the deposited data

How the results depend on the processing

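The 41111 windows, 8757 sites and 2648 loci called in either direction became 20556, 4879 and 105 with library sizes from repeat windows, 15718, 4223 and 1719 where mean counts reached 30, and 18827, 4219 and 476 against a minimum fold of 1.5. The DESeq2 Wald test called 9016 windows and 1884 sites. Leaving out 1 library gave 12511 to 67073 windows, 3031 to 15662 sites and 882 to 5404 loci. The cause was not tested. With library-size scaling the splits (pDC, cDC) were 18627 to 24699 windows, 4244 to 5036 sites and 924 to 1491 loci, against 22882 to 18229, 5123 to 3634 and 1408 to 1240 with TMM, and the median log2 fold of windows was -0.11. The 101295 and 89783 windows above input in cDCs and pDCs became 7377 and 9830 with TMM scaling. With the replicate number as a block there were 42844 windows, 9680 sites and 2380 loci; the labels do not say that a number marks a shared batch, and same-numbered deviations correlated at 0.0168, so the numbers were not taken as pairs. Under the block the outer Mgl2 site passed (edgeR adjusted p = 0.0398). Of the members, Cd209a turned to 0.0149 and Clec10a to -0.0558 with flanks of 50 kb, where Mgl2 was no longer called (-0.14) and Cd209e was (-0.80), by the same value as Cd209d, whose locus then holds the same windows. Leaving out 1 library moved the uncalled sites Cd209a 3739351 to 3739460 between -0.64 and 0.61 and Cd207 83685451 to 83685610 between -1.57 and 0.55. Site calls that ended against a minimum fold of 1.5 were that of Cd209a (edgeR adjusted p = 0.104) and the Cd209d start (0.383), and the latter also ended with library sizes from repeat windows (-2.01). The 5 site calls ended in the DESeq2 Wald test, while the 4 locus calls held there.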

Other observations

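Beyond the 10 kb flanks and up to 50 kb from a member's span lay 17 further sites, of which 2 were called higher in cDCs, 2 higher in pDCs and 13 were not called; over all sites 14.5% were called. The site with the largest log2 fold among them lay 18.5 kb from Cd207 at 83696351 to 83696960 of chromosome 6, inside the long non-coding gene Vax2os. Its highest window had 134 and 76 counts in cDCs, 8 and 11 in pDCs and 3 in the input, and the log2 fold at its best window was -2.80 ± 0.38 (edgeR adjusted p = 0.000136 for the site). In the same direction as the start site of Cd207, it stood higher in both cDC libraries, though cDC replicate 1 exceeded cDC replicate 2. On the other side of the comparison, a site inside Vax2, 44.4 kb from Cd207 at 83722301 to 83722460, had 11 and 15 counts in cDCs and 32 and 21 in pDCs (1.72 ± 0.41, edgeR adjusted p = 0.0133).

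Near the galactose lectin genes, a site at 70112901 to 70113110 of chromosome 11 lay 17.01 kb from Mgl2. Its highest window had 34 and 35 counts in cDCs, 7 and 6 in pDCs and 3 in the input. The log2 fold was -1.69 ± 0.45 at that window and -2.25 ± 0.60 at the best window (edgeR adjusted p = 0.0234 for the site). A site at 70080901 to 70081110 lay 49.0 kb from Mgl2 and inside Gm32946. Its highest window had 5 and 10 counts in cDCs, 23 and 17 in pDCs and 1 in the input. The log2 fold was 2.10 ± 0.49 at that window and 2.52 ± 0.57 at the best window (edgeR adjusted p = 0.00853 for the site). Under scaling to window totals, neither of these highest windows was above the input in either cell type. In pDCs 1 window of the site inside Gm32946 was above it. The strongest sites of these surroundings were not called. At 70083951 to 70085010, also inside Gm32946, the highest window had 295 and 283 counts in cDCs and 187 and 161 in pDCs, at the 99.6th percentile of all sites; 3 of its 22 windows were called, with a log2 fold of -1.89 ± 0.52 at the best window (edgeR adjusted p = 0.118 for the site). Inside Clec4g, 31.3 kb from Cd209a on chromosome 8 at 3711701 to 3712110, it had 244 and 255 counts in cDCs and 181 and 158 in pDCs, at the 99.4th percentile. These sites were named after their values were seen.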
